A study of Homo sapiens with 24 samples.

Results

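Expression of 10 Notch pathway genes was followed by RNA-seq across 24 libraries of T/C-28a2 cells, an immortalised human chondrocyte line. The genes were 3 receptors (NOTCH1, NOTCH2, NOTCH3), 3 ligands (JAG1, JAG2, DLL1) and 4 target genes (HES1, HEY1, HEYL, NRARP), each matched by its symbol to 1 of the 62703 Ensembl gene identifiers in the count files. Of the 10 genes, 9 passed the filter on low counts that left 16600 genes for testing, and HEYL did not. There were 4 libraries in each of 6 groups. WT Ctr cells were untransfected wild-type cells in isotonic medium (300 mOsm), and WT Sor cells were the same cells in medium with 100 mM sorbitol (400 mOsm). WNK2 trans Ctr and WNK2 trans Sor cells were wild-type cells transfected with a WNK2 expression plasmid for 48 hours and then kept in isotonic or sorbitol medium. WNK2- Ctr and WNK2- Sor cells carried a CRISPR/Cas9 deletion of exon 2 of WNK2, a kinase of a family that responds to osmotic stress, and were kept in the same media without transfection. All 6 groups stayed in their medium, with low serum, for 7 days. WNK2- cells are a clonal line, so that the deletion and the history of 1 clone cannot be told apart, and the control cells of the transfected groups received no empty plasmid, so that WNK2 and the transfection itself cannot be told apart.

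Notch receptors are activated when a Jagged or Delta-like ligand on a neighbouring cell pulls on them. Proteolytic cleavage then frees the intracellular domain, which enters the nucleus, joins the DNA-binding protein RBPJ and a Mastermind coactivator, and switches on genes such as HES1, HEY1, HEYL and NRARP. In cartilage the pathway is known for holding back the differentiation of chondrocytes and for acting in joint maintenance and in osteoarthritis.

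WNK2 counts did not match the labels of the isotonic libraries. The libraries labelled WT Ctr held 2520.0 ± 901 normalized counts of WNK2 (SD, n = 4) and those labelled WNK2 trans Ctr held 252 ± 52.8, whereas those labelled WNK2 trans Sor held 3033 ± 707 and those labelled WT Sor 303 ± 19.0. The 4 libraries labelled WT Ctr lay above all 4 labelled WNK2 trans Ctr. Groups are therefore named as they are labelled, and no direction between the 2 isotonic groups can be read as an effect of WNK2. Most comparisons of the Notch genes between another group and one of them are given with the other one beside it. For WNK2 trans Sor, the comparison with WT Ctr was added after the data had been seen. WNK2 counts were also higher in WNK2 trans Sor than in WNK2 trans Ctr (log2 fold change 3.59, SE 0.22, edgeR adjusted p = 7.92e-13). They were lower in WT Sor than in WT Ctr (−3.06, SE 0.21, adjusted p = 1.52e-10). In both comparisons sorbitol cannot be told apart from the difference in WNK2. WT Sor and WNK2 trans Ctr did not differ past the threshold in WNK2 (0.27, adjusted p = 0.434), nor did the WNK2- groups (−0.18, adjusted p = 0.626). Counting covered all exons of WNK2, so the 407 ± 13.9 normalized counts in the libraries labelled WNK2- Ctr do not tell whether exon 2 was present. They lay above those of WNK2 trans Ctr (log2 fold change 0.69, SE 0.20, edgeR adjusted p = 0.00681) and below those of WT Ctr (−2.63, SE 0.20, adjusted p = 1.54e-10). WNK2- Sor did not differ past the threshold from WT Sor in WNK2 (0.25, SE 0.20, adjusted p = 0.330). WNK2 counts therefore do not tell these 2 groups apart, and the label of WT Sor is not checked by them. Total counts ran from 14153002 to 25664619 per library. Pairs of replicates differed by more than counting error in every group, most of all in WNK2 trans Sor and WT Ctr. The methods of the study call the replicates biological, while the labels only number them, and p-values measure the spread between these libraries.

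Markers of cell type and base composition moved with the groups. Of 10 chondrocyte markers 7 passed the filter, and SOX9, a defining transcription factor of chondrocytes, was listed at 0 in every library. PSEN2, ITCH and SNW1, which most cells use, and CD68 and HES6 were also listed at 0, so that a listed 0 does not show absence. The summed level of the chondrocyte list was 92.5 to 107 CPM (counts scaled to a library size of 1e6) in WT Ctr and 86.5 to 92.0 in WT Sor. The transfected libraries held 69.4 to 87.2 CPM of it when isotonic and 111 to 158 under sorbitol, against 22.9 to 25.8 and 24.3 to 28.5 in the WNK2- libraries. HAPLN1 made up most of this sum, with up to 2765 reads in a library against at most 224 for any other gene of the list. By gene, 5 of the 7 tested chondrocyte markers were called lower and 2 higher in WNK2 trans Sor against WNK2 trans Ctr (median log2 fold change −2.03), and 5 lower and 1 higher against WT Sor (−1.27). In WNK2- cells 4 were lower and 0 higher against WT Ctr (−1.32), and 5 lower and 0 higher against WT Sor (−1.94). Against WNK2 trans Ctr, 5 were lower and 0 higher in WNK2- Ctr (−1.75). The 5 endothelial markers, of which 4 passed the filter, summed to between 36.2 and 42.5 CPM in isotonic and 60.0 and 67.2 CPM in sorbitol libraries of wild-type cells. In the same order the ranges were 25.3 to 41.7 and 99.3 to 106 in transfected cells, and 24.4 to 29.1 and 35.8 to 45.7 in WNK2- cells. PECAM1 and CDH5 carried this sum, with up to 1033 reads each against at most 79 for the others. By gene, 3 of the 4 tested endothelial markers were called higher and 1 lower in WNK2- Ctr against WT Ctr (median log2 fold change 0.84), and 2 higher and 1 lower in WNK2- Sor against WT Sor (0.77). Against WNK2 trans Ctr, 3 were higher and 1 lower in WNK2- Ctr (2.57). In WNK2 trans Sor 3 were higher and 0 lower against WNK2 trans Ctr (1.58). Of 4 immune markers, CD14 alone passed the filter. In bulk samples, fewer cells of a type and less RNA per cell cannot be told apart, and the part of these markers in the Notch results was not tested. Between WNK2 trans Sor and WT Sor, log2 fold changes had a median of −0.40 in the fifth of genes with the most GC-rich transcripts, and of 0.15 in the fifth with the least GC. NRARP (67.3% GC), JAG2 (64.0%), NOTCH3 (63.1%) and NOTCH1 (62.9%) are far above the median of 48.5% over tested genes, while JAG1 (49.6%), NOTCH2 (49.4%), HES1 (49.9%) and HEY1 (47.3%) are close to it. Fold changes after removal of the trend of every library over GC content and transcript length, a correction that was added after the data had been seen, are therefore given for the genes whose calls it changed.

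JAG1 and HES1 gave the most reads per length among the 10 genes in WT Ctr. In CPM per kilobase of gene model (CPM per kb), HES1 stood at 42.2 ± 9.15 and JAG1 at 38.3 ± 3.33 (SD, n = 4) in WT Ctr, and their ranges overlapped. NOTCH1 (14.7 ± 4.20), NOTCH2 (14.1 ± 3.66), NOTCH3 (14 ± 4.19) and NRARP (10.8 ± 1.98) formed the next step in CPM per kb, each overlapping its neighbour in the order. HEY1 (3.69 ± 0.847), JAG2 (1.02 ± 0.157), DLL1 (0.708 ± 0.166) and HEYL (0.101 ± 0.0637) followed, and among these only the ranges of JAG2 and DLL1 overlapped. The order changed with the group mainly through NOTCH3, which was second with 52.7 ± 3.66 CPM per kb in WNK2 trans Ctr, where its range overlapped that of HES1 below it. NOTCH3 came after JAG1 and HES1 with 26.1 ± 0.746 in WT Sor, and after all but HEY1, HEYL, JAG2 and DLL1 with 6.79 ± 0.620 in WNK2- Ctr and 2.03 ± 0.159 in WNK2- Sor, with no overlap with its neighbours in these 3 groups. JAG1 led in the other 5 groups. In WNK2- Sor HES1 (18.3 CPM per kb) came after NOTCH1 (20.2) and NOTCH2 (19.3), and the ranges of neighbours among these 3 overlapped.

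**Figure D1:**
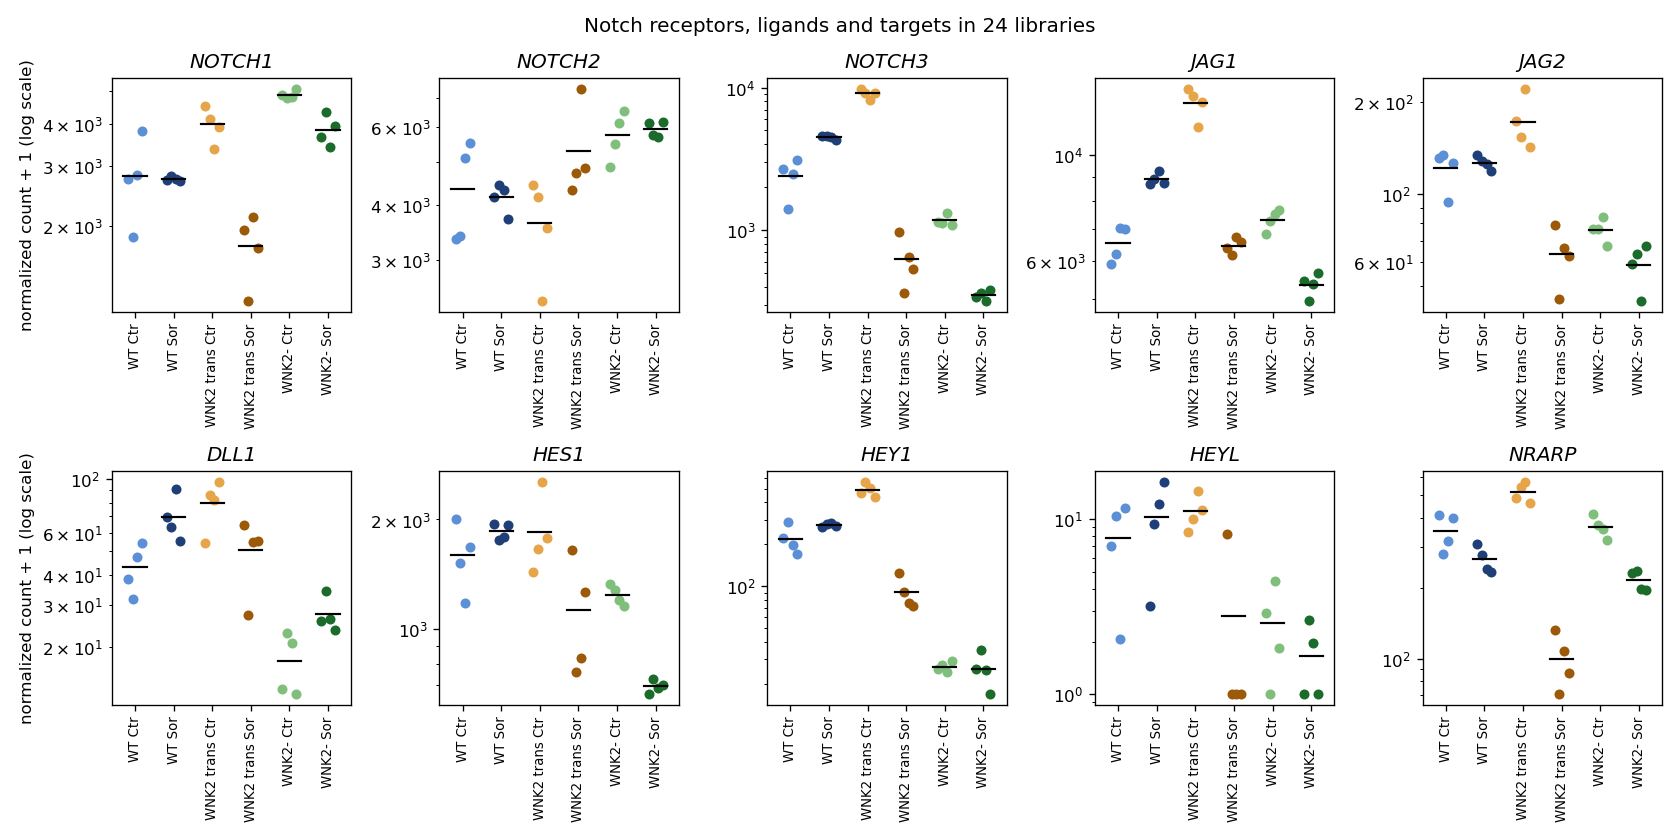
Normalized count + 1 (log scale) of each of the 10 genes in each library (points, 4 per group) with the group mean (bar), in the 6 groups on the x axis. NOTCH3 and HEY1 span the widest ranges, NOTCH3 from 9083 on average in WNK2 trans Ctr to 349 in WNK2- Sor, while the group means of NOTCH2 stay between 3645 and 5943.

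Promoter sequences are shown for HES1, the target with the most reads per length, and for NRARP and NOTCH3, which moved furthest among the GC-rich genes. The windows hold the 250 bases before the RefSeq transcription start on GRCh38.p14, written 5′ to 3′ on the strand of the gene, with matches to the RBPJ core motif TGGGAA, or its longer form GTGGGAA, in capitals on either strand. The shorter motif lies inside the longer one, so a match to the longer one is a match to both.
HES1 (chr3:194135898-194136147, plus strand): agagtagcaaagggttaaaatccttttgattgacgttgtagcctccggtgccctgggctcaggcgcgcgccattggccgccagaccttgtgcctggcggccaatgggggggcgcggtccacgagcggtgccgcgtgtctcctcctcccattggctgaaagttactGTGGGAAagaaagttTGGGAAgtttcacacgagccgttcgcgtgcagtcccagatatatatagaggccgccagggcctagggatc
NRARP (chr9:137302272-137302521, minus strand): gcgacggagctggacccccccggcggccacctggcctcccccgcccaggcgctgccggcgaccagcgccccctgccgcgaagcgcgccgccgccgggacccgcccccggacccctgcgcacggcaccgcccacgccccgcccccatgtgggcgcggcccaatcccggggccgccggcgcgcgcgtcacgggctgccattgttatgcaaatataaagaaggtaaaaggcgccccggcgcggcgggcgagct
NOTCH3 (chr19:15200996-15201245, minus strand): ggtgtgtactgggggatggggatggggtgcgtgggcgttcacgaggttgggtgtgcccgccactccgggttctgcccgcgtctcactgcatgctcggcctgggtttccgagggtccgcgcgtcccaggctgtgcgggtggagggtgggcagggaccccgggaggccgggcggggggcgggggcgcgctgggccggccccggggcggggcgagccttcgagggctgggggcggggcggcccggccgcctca
HES1 holds GTGGGAA starting 85 bases before the start and a second TGGGAA starting 70 bases before it, on its own strand. Of the 8 members with a window in the RefSeq table, the other one with matches was HEYL, with the reverse complement of GTGGGAA 178 bases and TGGGAA 99 bases before the start. Over 34943 windows of the same length, 20.9% held TGGGAA and 5.41% held GTGGGAA on either strand. DLL1 and HEY1 had no window in that table, so their promoters were not searched. A match is a description of letters, and its absence in the NRARP and NOTCH3 windows says only that these letters are not there.

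NOTCH3 (ENSG00000074181, GRCh38 chromosome 19, 15159038 to 15200981), a receptor best known from mural cells of blood vessels, spanned one of the 2 widest ranges among the tested genes, with HEY1. It had 2666, 1397, 2485 and 3094 normalized counts in the WT Ctr libraries and 4569, 4594, 4506 and 4309 in WT Sor. The WNK2 trans Ctr libraries held 9764, 9166, 8237 and 9166, and the WNK2 trans Sor libraries 975, 364, 646 and 537. Thus the 2 transfected groups stood at the top and near the bottom of the range, with no overlap. WNK2- Ctr held 1146, 1127, 1328 and 1087 normalized counts and WNK2- Sor 339, 361, 317 and 380.5. Every WNK2- Sor library lay below every WNK2- Ctr library, and these in turn below every WT Ctr library. Under sorbitol NOTCH3 was 12.9-fold lower in WNK2- than in WT cells (log2 fold change −3.68, SE 0.22, edgeR adjusted p = 6.21e-13). In isotonic medium it was lower by 1.04 on the log2 scale against WT Ctr (log2 fold change −1.04, SE 0.20, adjusted p = 0.000167) and by more against WNK2 trans Ctr (−2.95, SE 0.21, adjusted p = 2.02e-11). The direction under sorbitol in wild-type cells depended on the isotonic group: WT Sor was higher than WT Ctr (0.90, SE 0.20, adjusted p = 0.00177) and lower than WNK2 trans Ctr (−1.02, SE 0.20, adjusted p = 0.000717). It fell under sorbitol in WNK2- cells (−1.75, SE 0.21, adjusted p = 1.17e-06) and in WNK2 trans Sor against WNK2 trans Ctr (−3.85, SE 0.22, adjusted p = 3.60e-13), and WNK2 trans Sor was also below WT Ctr (−1.94, SE 0.21, adjusted p = 7.07e-08). WNK2 trans Ctr was higher than WT Ctr (1.91, SE 0.20, adjusted p = 2.76e-07) and WNK2 trans Sor lower than WT Sor (−2.84, SE 0.21, adjusted p = 2.11e-10). All 10 calls held with the GC and length correction, which moved the log2 fold changes to between −3.42 and 1.6 (WT Sor against WT Ctr to 0.51, adjusted p = 0.000160), and in every fit that left out 1 library. The transcript overlaps a microRNA precursor on its own strand.

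NOTCH1 (ENSG00000148400, chromosome 9, 136494433 to 136545786), a receptor with broad expression, varied over a narrower range. Its normalized counts were 2756, 1852, 2820.1 and 3813 in WT Ctr and 2737, 2808, 2757 and 2709.6 in WT Sor. WNK2- Ctr held 4866, 4775, 4791 and 5071, and WNK2- Sor 3664, 4335, 3426 and 3948. All WNK2- Ctr libraries were above all other libraries of the untransfected groups. Among the transfected cells, WNK2 trans Ctr had 4512, 4144, 3368 and 3918 normalized counts and WNK2 trans Sor 1948, 1196, 2122 and 1724, without overlap. NOTCH1 was higher in WNK2- Ctr than in WT Ctr (log2 fold change 0.80, SE 0.16, adjusted p = 0.000229) and in WNK2- Sor than in WT Sor (0.48, SE 0.16, adjusted p = 0.0139; 0.79 with the GC and length correction), while NOTCH3 was lower in both. Against WNK2 trans Ctr the difference of WNK2- Ctr did not pass (0.29, 95% CI −0.03 to 0.61, adjusted p = 0.130), but it passed in a fit of those groups alone (0.29, adjusted p = 0.0163) and with the GC and length correction (0.42, adjusted p = 0.000106). NOTCH1 was lower in WNK2 trans Sor than in WNK2 trans Ctr (−1.19, SE 0.16, adjusted p = 1.13e-06; −0.73 with the correction) and than in WT Ctr (−0.69, SE 0.16, adjusted p = 0.00131). In wild-type cells it did not differ detectably from WT Ctr (−0.03, 95% CI −0.35 to 0.29) and was below WNK2 trans Ctr (−0.53, adjusted p = 0.0213). That last call was lost without any 1 of the 4 WT Sor libraries, or WNK2 trans Ctr replicate 1 or 2 (−0.47 to −0.54, adjusted p = 0.0506 to 0.0612). The change under sorbitol in WNK2- cells missed the threshold (−0.34, adjusted p = 0.155) and passed in a fit of these groups alone (−0.35, adjusted p = 0.00204), with the correction (−0.24, adjusted p = 0.0313), and without WT Ctr and WNK2 trans Ctr (−0.36, adjusted p = 0.0382). NOTCH1 stayed lower in WNK2 trans Sor than in WT Ctr with the GC and length correction (−0.56, adjusted p = 3.94e-06). Its calls between transfected and untransfected wild-type libraries in the same medium were lost with that correction. WNK2 trans Ctr was higher than WT Ctr (0.50, adjusted p = 0.0348) and WNK2 trans Sor lower than WT Sor (−0.66, adjusted p = 0.00252), but with the correction neither passed (0.17, adjusted p = 0.163, and −0.12, adjusted p = 0.285), and NOTCH1 was then lower in WT Sor than in WT Ctr (−0.44, adjusted p = 0.000154). The first of these was also lost in a fit of the groups alone (0.50, adjusted p = 0.178), and without WT Ctr replicate 1, 2 or 3 or WNK2 trans Ctr replicate 1, 2 or 4 (0.35 to 0.52, adjusted p = 0.0516 to 0.144). An antisense gene overlaps NOTCH1, and reads of the pair cannot be told apart if strand was not used.

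NOTCH2 (ENSG00000134250, chromosome 1, 119911553 to 120069626) shares much of its sequence with the NOTCH2NL genes, so its counts are uncertain. It was the receptor with the most even levels, with group means between 3645 ± 895 normalized counts in WNK2 trans Ctr and 5943 ± 241 in WNK2- Sor (SD, n = 4). WT Ctr libraries ran from 3357 to 5525 and WT Sor from 3719 to 4444, whereas WNK2- Ctr ran from 4884 to 6547 and WNK2- Sor from 5696 to 6165. The sorbitol groups of WNK2- and WT cells did not overlap. NOTCH2 was higher in WNK2- Sor than in WT Sor (log2 fold change 0.51, SE 0.18, adjusted p = 0.0190), a call lost without WT Sor replicate 4 (0.45, adjusted p = 0.0701) or WNK2- Sor replicate 4 (0.48, adjusted p = 0.0506). WNK2- Ctr was higher than WNK2 trans Ctr (0.66, adjusted p = 0.00314), but not past the threshold against WT Ctr (0.41, 95% CI 0.04 to 0.77, adjusted p = 0.0656). This passed with DESeq2 (0.42, adjusted p = 0.0480), with no filter or a stricter filter on counts (at least 10 in every library; 0.42 and 0.44, adjusted p = 0.0400 and 0.0494), and without WT Ctr replicate 3 or 4 or WNK2- Ctr replicate 1 (0.48 to 0.54, adjusted p = 0.0206 to 0.0466). NOTCH2 was the 1 gene of the 9 that was higher in WNK2 trans Sor than in WNK2 trans Ctr (0.54, SE 0.18, adjusted p = 0.0136; 0.35 with the correction), with overlap between the groups, and against WT Ctr it did not pass (0.29, 95% CI −0.08 to 0.65, adjusted p = 0.201). It lost the call in a fit of the groups alone (0.53, adjusted p = 0.0659), and without replicate 3 of WNK2 trans Ctr (0.39, adjusted p = 0.0635) or of WNK2 trans Sor (0.34, adjusted p = 0.111). A further 3 NOTCH2 differences passed with the correction: WT Sor against WT Ctr (−0.30, adjusted p = 0.0402), WNK2 trans Ctr against WT Ctr (−0.35, adjusted p = 0.0277) and WNK2 trans Sor against WT Sor (0.29, adjusted p = 0.0399). The last of these also passed without WT Ctr and WNK2 trans Ctr in the fit (0.34, adjusted p = 0.0371).

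JAG1 (ENSG00000101384, chromosome 20, 10637684 to 10673999), the main ligand by reads per length, was highest in WNK2 trans Ctr and lowest in WNK2- Sor, as NOTCH3 was, over a narrower range. Its normalized counts were 5909.7, 6211, 7039 and 7002 in WT Ctr and 8698, 8884, 9241 and 8719 in WT Sor. WNK2 trans Ctr held 13699.8, 13227, 11399 and 12872, and WNK2 trans Sor 6409, 6177, 6727 and 6571. Both pairs were without overlap, and in opposite order. In the WNK2- libraries JAG1 ran from 6847 to 7658 normalized counts in isotonic medium and from 4953 to 5673 in sorbitol. Under sorbitol it was lower in WNK2- than in WT cells (log2 fold change −0.73, SE 0.08, adjusted p = 1.39e-08). In isotonic medium WNK2- Ctr was lower than WNK2 trans Ctr (−0.81, SE 0.08, adjusted p = 2.36e-09) and 0.16 higher than WT Ctr (95% CI 0.01 to 0.32, adjusted p = 0.0834). The stricter filter on counts (0.19, adjusted p = 0.0355), DESeq2 (0.17, adjusted p = 0.0371) and omission of WT Ctr replicate 3 (0.21, adjusted p = 0.0439) brought this small difference past the threshold. JAG1 was higher in WT Sor than in WT Ctr (0.44, SE 0.07, adjusted p = 0.000136) and lower than in WNK2 trans Ctr (−0.53, SE 0.07, adjusted p = 1.76e-05). It fell under sorbitol in WNK2- cells (−0.45, SE 0.07, adjusted p = 0.000122) and in WNK2 trans Sor against WNK2 trans Ctr (−0.98, SE 0.08, adjusted p = 8.93e-11). Against WT Ctr, WNK2 trans Sor did not differ detectably in JAG1 (−0.02, 95% CI −0.17 to 0.14, adjusted p = 0.890) except with the GC and length correction (−0.18, adjusted p = 0.00476). WNK2 trans Ctr was higher than WT Ctr (0.97, SE 0.08, adjusted p = 1.42e-09) and WNK2 trans Sor lower than WT Sor (−0.46, SE 0.07, adjusted p = 4.34e-05). An antisense gene overlaps JAG1.

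JAG2 and DLL1 were far less abundant. JAG2 (ENSG00000184916, chromosome 14, 105140981 to 105168824), a second Jagged ligand, averaged 120.2 ± 18.4 normalized counts in WT Ctr, 125 ± 6.41 in WT Sor, 171 ± 34.4 in WNK2 trans Ctr and 62.4 ± 14.1 in WNK2 trans Sor (SD, n = 4). WNK2- Ctr libraries ran from 66.6 to 82.8 and WNK2- Sor from 43.5 to 66.4, all below every WT Ctr and WT Sor library. JAG2 was lower in WNK2- Ctr than in WT Ctr (log2 fold change −0.67, SE 0.17, adjusted p = 0.00303) and WNK2 trans Ctr (−1.18, SE 0.17, adjusted p = 3.34e-06), and lower in WNK2- Sor than in WT Sor (−1.12, SE 0.18, adjusted p = 1.11e-05), where the correction gave −0.73. It was lower in WNK2 trans Sor than in WNK2 trans Ctr (−1.46, SE 0.18, adjusted p = 2.45e-07; −0.89 with the correction) and than in WT Ctr (−0.95, SE 0.18, adjusted p = 0.000174). WNK2 trans Sor was lower than WT Sor (−1.01, SE 0.18, adjusted p = 0.000109), a call lost with the correction (−0.40, adjusted p = 0.107). WNK2 trans Ctr was higher than WT Ctr (0.51, adjusted p = 0.0483), and this call was lost with the correction (0.11, adjusted p = 0.729), without the filter on counts, with thinned counts, with upper-quartile or RLE scaling, with the replicate block (0.51, adjusted p = 0.0645) and in a fit of the groups alone (0.50, adjusted p = 0.205). It was also lost without WT Ctr replicate 2, 3 or 4 or WNK2 trans Ctr replicate 1, 2 or 3 (0.37 to 0.56, adjusted p = 0.0509 to 0.167). WT Sor against WNK2 trans Ctr (−0.45, adjusted p = 0.0722) passed with DESeq2 (−0.45, adjusted p = 0.0498) and with the correction (−0.50, adjusted p = 0.0365).

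DLL1 (ENSG00000198719, chromosome 6, 170282206 to 170306565), a Delta-like ligand, was counted 13 to 104 times per library. It had 37.4, 30.8, 46.5 and 53.1 normalized counts in WT Ctr and 68.6, 62.1, 90.3 and 54.1 in WT Sor. WNK2- Ctr held 12.3, 21.9, 19.8 and 11.7, and WNK2- Sor 24.6, 33.3, 25.1 and 22.4. All 8 WNK2- libraries lay below all 4 WT Sor libraries, and the 4 isotonic ones below all WT Ctr libraries. The transfected groups overlapped, at 53.5 to 96.5 normalized counts when isotonic and 26.1 to 63.8 under sorbitol. DLL1 was lower in WNK2- than in WT cells in isotonic medium (log2 fold change −1.34, SE 0.29, adjusted p = 0.000658) and in sorbitol (−1.38, SE 0.27, adjusted p = 0.000151), and lower than in WNK2 trans Ctr (−2.26, SE 0.28, adjusted p = 3.38e-07). WNK2 trans Ctr was higher than WT Ctr (0.92, SE 0.26, adjusted p = 0.0213). That call was lost in a fit of the groups alone (0.91, adjusted p = 0.0748) and without WT Ctr replicate 2 or WNK2 trans Ctr replicate 2 or 4 (0.80 to 0.88, adjusted p = 0.0533 to 0.0787). The fall in WNK2 trans Sor against WNK2 trans Ctr (−0.68, SE 0.26, adjusted p = 0.0314) was lost with no filter (−0.69, adjusted p = 0.0537), in a fit of the groups alone (−0.69, adjusted p = 0.0884), with the correction (−0.46, adjusted p = 0.0971), and without WNK2 trans Ctr replicate 2, 3 or 4 or WNK2 trans Sor replicate 2 (−0.47 to −0.67, adjusted p = 0.0552 to 0.127). Against WT Ctr the value of WNK2 trans Sor was in the opposite direction and did not pass (0.24, 95% CI −0.32 to 0.79, adjusted p = 0.515). WT Sor was 0.72 above WT Ctr (adjusted p = 0.0511), which passed with DESeq2 (0.72, adjusted p = 0.0341), upper-quartile factors (0.75, adjusted p = 0.0405) and the stricter filter (0.76, adjusted p = 0.0319), and without replicate 4 of WT Ctr (0.84, adjusted p = 0.0347) or of WT Sor (0.82, adjusted p = 0.0443). FAM120B on the opposite strand overlaps DLL1.

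HES1 (ENSG00000114315, chromosome 3, 194136145 to 194138732) encodes a transcriptional repressor that is a direct target of Notch in many tissues. Its normalized counts were 2011, 1521, 1178 and 1682 in WT Ctr and 1944, 1754, 1786 and 1932 in WT Sor. WNK2- Ctr held 1331, 1279, 1199 and 1153, and WNK2- Sor 660.3, 727, 687 and 701. The WNK2- Sor libraries were the lowest of all 24. In transfected cells HES1 was spread widely, at 1431 to 2535 normalized counts when isotonic and 762 to 1645 under sorbitol, and the groups overlapped. Under sorbitol HES1 was 2.67-fold lower in WNK2- than in WT cells (log2 fold change −1.42, SE 0.19, adjusted p = 1.07e-06). In isotonic medium the difference from WT Ctr did not pass (−0.36, 95% CI −0.75 to 0.02, adjusted p = 0.122) except with the correction (−0.46, adjusted p = 0.0203). Against WNK2 trans Ctr it passed (−0.58, adjusted p = 0.0131) but not without WNK2 trans Ctr replicate 3 (−0.39, adjusted p = 0.0877). HES1 fell under sorbitol in WNK2- cells (−0.84, SE 0.19, adjusted p = 0.00279) and in WNK2 trans Sor against WNK2 trans Ctr (−0.72, SE 0.19, adjusted p = 0.00280). WNK2 trans Sor was also below WT Ctr in HES1 (−0.51, SE 0.19, adjusted p = 0.0343), a call lost in a fit of the groups alone (−0.49, adjusted p = 0.175) and without WT Ctr replicate 1 or 4 or WNK2 trans Sor replicate 2 or 3 (−0.35 to −0.48, adjusted p = 0.0674 to 0.146). WT Sor did not differ detectably from WT Ctr (0.21, 95% CI −0.17 to 0.60) or from WNK2 trans Ctr (0.00, 95% CI −0.38 to 0.39). WNK2 trans Sor was lower than WT Sor (−0.72, SE 0.19, adjusted p = 0.00468).

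HEY1 (ENSG00000164683, chromosome 8), a related repressor and Notch target, was nearly lost from the WNK2- libraries. It had 219, 288, 198 and 169.9 normalized counts in WT Ctr and 267, 279.6, 281 and 272 in WT Sor. WNK2- Ctr held 24.6, 26.4, 23.3 and 28.3, and WNK2- Sor 24.6, 34.2, 24.2 and 15.9. No WNK2- library came near any WT library, and the 2 WNK2- groups overlapped. WNK2 trans Ctr held 463, 557, 506 and 436 normalized counts and WNK2 trans Sor 123, 90.3, 75.0 and 71.6. HEY1 was 11-fold lower in WNK2- than in WT cells under sorbitol (log2 fold change −3.46, SE 0.20, adjusted p = 2.67e-13) and 8.49-fold lower in isotonic medium (−3.09, SE 0.20, adjusted p = 5.71e-12). Against WNK2 trans Ctr it was lower by more (−4.25, SE 0.20, adjusted p = 6.31e-15). Sorbitol made no detectable difference in WNK2- cells (−0.05, 95% CI −0.52 to 0.42), where 17 to 41 reads per library were counted. HEY1 was lower in WNK2 trans Sor than in WNK2 trans Ctr (−2.45, SE 0.18, adjusted p = 2.96e-11) and than in WT Ctr (−1.29, SE 0.18, adjusted p = 3.19e-06). WT Sor was lower than WNK2 trans Ctr (−0.84, SE 0.16, adjusted p = 0.000756) but not different past the threshold from WT Ctr (0.33, 95% CI −0.02 to 0.67, adjusted p = 0.161), except without WT Ctr replicate 2 (0.49, adjusted p = 0.0438). WNK2 trans Ctr was higher than WT Ctr (1.16, SE 0.17, adjusted p = 1.91e-05) and WNK2 trans Sor lower than WT Sor (−1.62, SE 0.18, adjusted p = 1.31e-07).

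NRARP (ENSG00000198435, chromosome 9, 137300482 to 137302251) encodes a small ankyrin-repeat protein that is induced by Notch and feeds back on it. The WT Ctr libraries held 411, 278, 317 and 399.6 normalized counts and the WT Sor libraries 309, 276, 240.5 and 234. In WNK2 trans Ctr there were 488, 544, 570.1 and 462, and in WNK2 trans Sor 131, 69.3, 107 and 85.4. Every WNK2 trans Sor library was below all 20 others. WNK2- Ctr had 416, 374, 358 and 321 normalized counts and WNK2- Sor 231, 235, 198 and 196. NRARP did not differ detectably between WNK2- and WT cells in isotonic medium (log2 fold change 0.06, 95% CI −0.25 to 0.38), nor past the threshold in sorbitol (−0.30, 95% CI −0.62 to 0.02, adjusted p = 0.122), where a fit of these groups alone did call it (−0.30, adjusted p = 0.0240) and the correction gave 0.14 (adjusted p = 0.411). It fell under sorbitol in WNK2- cells (−0.77, SE 0.15, adjusted p = 0.000888) and was lower in WNK2 trans Sor than in WNK2 trans Ctr (−2.40, SE 0.16, adjusted p = 1.15e-11) and than in WT Ctr (−1.85, SE 0.16, adjusted p = 3.49e-09). WT Sor was lower than WNK2 trans Ctr (−0.96, SE 0.15, adjusted p = 7.33e-05). Against WT Ctr the value of WT Sor was −0.41 (adjusted p = 0.0558). This passed with DESeq2 (−0.41, adjusted p = 0.0323), the replicate block (−0.41, adjusted p = 0.0430) and the correction (−0.87, adjusted p = 2.60e-05), and when WT Ctr replicate 2 (−0.50, adjusted p = 0.0271) or WT Sor replicate 1 (−0.48, adjusted p = 0.0474) was left out. WNK2 trans Sor was lower than WT Sor (−1.44, SE 0.16, adjusted p = 2.77e-07), and by −0.68 with the correction (adjusted p = 0.000967). Differences of WNK2 trans Ctr from WT Ctr (0.56, adjusted p = 0.0155) and of WNK2- Ctr from WNK2 trans Ctr (−0.49, adjusted p = 0.00875) were lost with the correction (0.12, adjusted p = 0.593, and −0.19, adjusted p = 0.229). The former was also lost in a fit of the groups alone (0.55, adjusted p = 0.0736) and on leaving out WT Ctr replicate 2 (0.46, adjusted p = 0.0661).

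HEYL (ENSG00000163909, chromosome 1, 39624153 to 39639945), another member of the HEY family, was counted 0 to 15 times per library and was not tested. It had 5, 8, 1 and 8 raw counts in WT Ctr, 2, 7, 11 and 15 in WT Sor, and 6, 11, 12 and 9 in WNK2 trans Ctr. WNK2 trans Sor held 6 counts in replicate 1 and 0 in the others. WNK2- Ctr held 2, 0, 4 and 1 counts and WNK2- Sor 0, 2, 1 and 0. Counts this low cannot separate most of the groups. With no filter on counts, HEYL passed in WNK2- Sor against WT Sor (log2 fold change −3.66, adjusted p = 0.00429), WNK2 trans Sor against WNK2 trans Ctr (−2.53, adjusted p = 0.0366) and WNK2- Ctr against WNK2 trans Ctr (−2.61, adjusted p = 0.0262), values that depend on the prior count of the fit. An antisense gene overlaps HEYL.

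Between WNK2- and wild-type cells, 8 of the 9 tested genes differed under sorbitol, 6 lower and 2 higher (NOTCH1 and NOTCH2), with a median log2 fold change of −1.12 against 0.02 over all genes tested. Over all 16600 genes 46.3% were called in WNK2- Sor against WT Sor, 23.7% higher and 22.7% lower. In WNK2- Ctr against WT Ctr 5 of 9 were called, 1 higher and 4 lower, beside 42.1% of all genes (20.7% higher, 21.5% lower). Against WNK2 trans Ctr the count was 8 of 9, 1 higher and 7 lower, beside 47.7% of all genes (24% higher, 23.7% lower). NOTCH3, JAG2, DLL1 and HEY1 were lower in all 3 of these comparisons. WNK2- Sor was not tested against WNK2 trans Sor. Their mean normalized counts were 3843 and 1748 for NOTCH1, 5943 and 5306 for NOTCH2, and 349 and 630 for NOTCH3. For the ligands they were 5366 and 6471 (JAG1), 57.6 and 62.4 (JAG2), and 26.4 and 49.5 (DLL1). For HES1 they were 694 and 1124, for HEY1 24.7 and 89.9, and for NRARP 215 and 98.1.

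**Figure D2:**
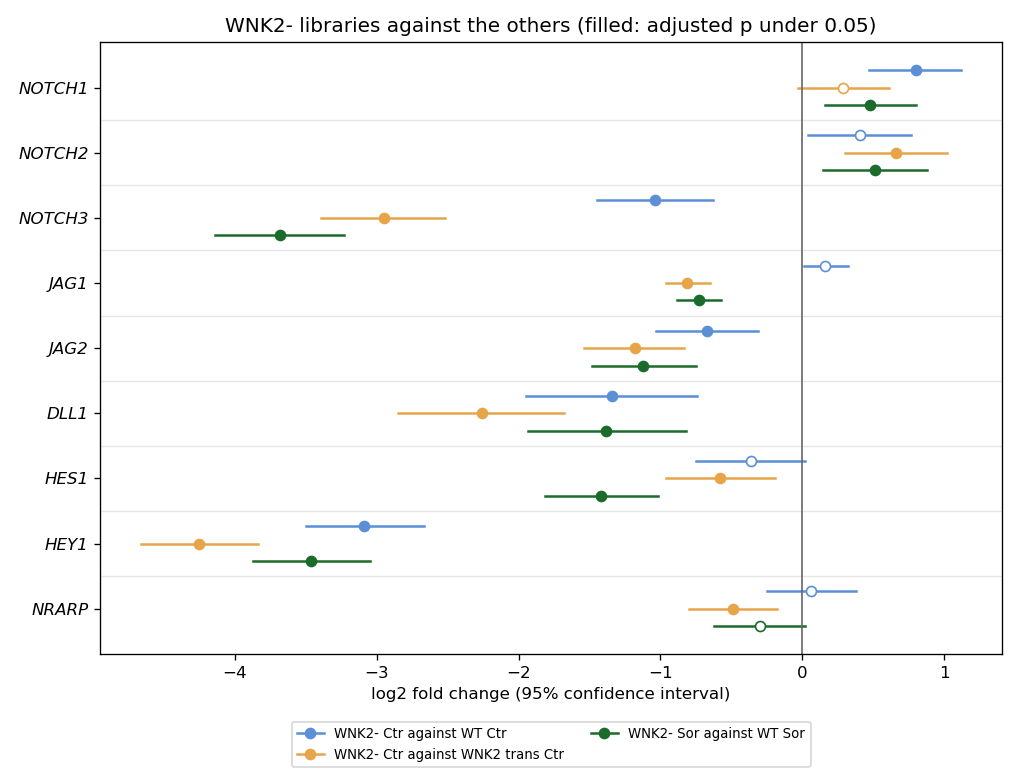
Log2 fold change (x axis, with 95% confidence interval) of the 9 tested genes (y axis) in WNK2- Ctr against WT Ctr, WNK2- Ctr against WNK2 trans Ctr and WNK2- Sor against WT Sor; filled points have an adjusted p under 0.05. NOTCH3 (−3.68) and HEY1 (−3.46) show the largest differences under sorbitol, while NOTCH1 lies at or above 0.29 in all 3.

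Most calls under sorbitol were falls in the transfected and WNK2- libraries, and in wild-type cells the direction of NOTCH3 and JAG1 changed with the isotonic group. WNK2 counts also differed in WT Sor against WT Ctr and in WNK2 trans Sor against WNK2 trans Ctr. Sorbitol and WNK2 cannot be told apart in these comparisons. In WNK2 trans Sor against WNK2 trans Ctr all 9 tested genes were called, 8 lower and 1 higher, beside 48% of all genes (24.3% higher, 23.7% lower), and the median log2 fold change was −1.19 against 0.01. With WT Ctr as the isotonic group, 6 of the 9 were called in WNK2 trans Sor, all lower (NOTCH1, NOTCH3, JAG2, HES1, HEY1 and NRARP), beside 39.2% of all genes (19.8% higher, 19.5% lower), with a median of −0.69 against −0.02. In WNK2- Sor against WNK2- Ctr 4 were called, all lower (NOTCH3, JAG1, HES1 and NRARP), beside 14.9% of all genes (8.25% higher, 6.64% lower). In WT Sor against WT Ctr NOTCH3 and JAG1 were called, both higher, beside 24.1% of all genes (11.4% higher, 12.7% lower), so that the share of the Notch genes was near the background. With WNK2 trans Ctr as the isotonic group, 5 of the 9 were called in WT Sor and all were lower (NOTCH1, NOTCH3, JAG1, HEY1 and NRARP), beside 15.1% of all genes (8.74% higher, 6.31% lower).

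**Figure D3:**
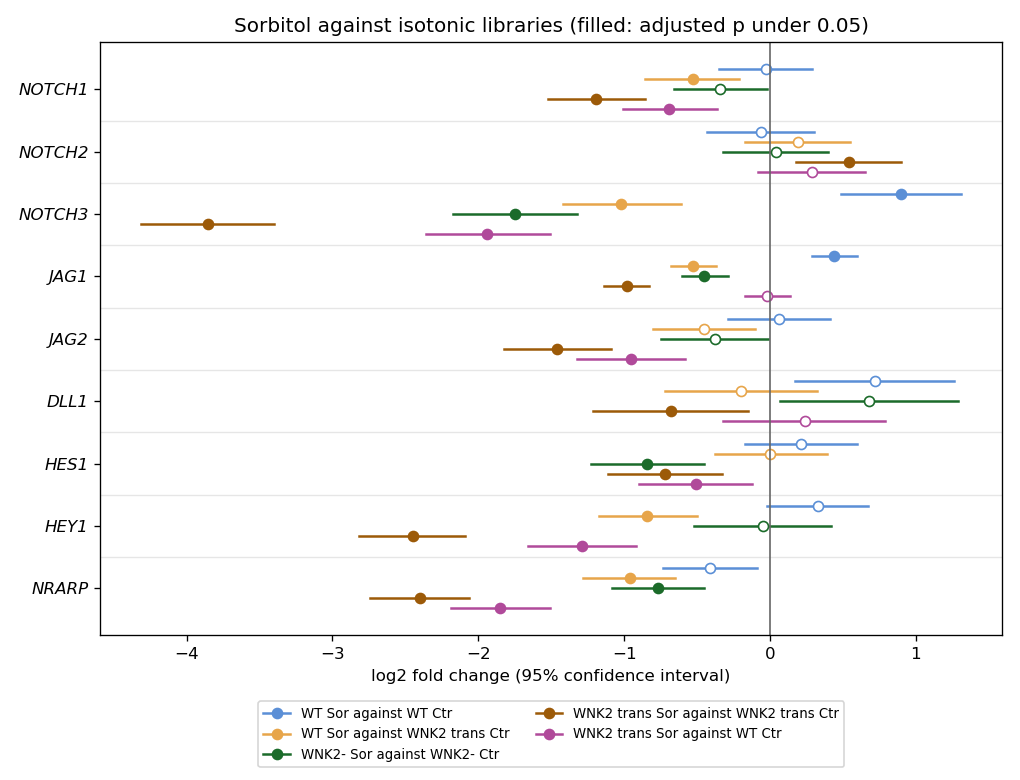
Log2 fold change (x axis, with 95% confidence interval) of the 9 tested genes (y axis) under sorbitol, in wild-type cells against each of the 2 isotonic groups, in WNK2- cells, and in transfected cells against each of the same 2 groups; filled points have an adjusted p under 0.05. NOTCH3 and JAG1 lie above 0 in WT Sor against WT Ctr (0.90 and 0.44) and below 0 in the other 4 comparisons, where JAG1 in WNK2 trans Sor against WT Ctr (−0.02) is not called.

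Between the isotonic libraries labelled WNK2 trans Ctr and WT Ctr, 7 of 9 genes were called higher in the former and none lower, beside 12.5% of all genes (5.57% higher, 6.98% lower). WNK2 counts ran against these labels, and exchanging the labels would turn every direction in this comparison. A fit of these groups alone called 3 genes, and the counts without WT Ctr replicate 2 and without WNK2 trans Ctr replicate 2 were 3 and 4. In WNK2 trans Sor against WT Sor 7 were lower and none higher, beside 31.7% of all genes (16.1% higher, 15.5% lower). WNK2 trans Sor and WNK2- Sor were compared with the same WT Sor libraries. Side by side, the log2 fold changes from WT Sor were −2.84 in WNK2 trans Sor and −3.68 in WNK2- Sor for NOTCH3, −1.62 and −3.46 for HEY1, −1.44 and −0.30 for NRARP, and −0.66 and 0.48 for NOTCH1. With the GC and length correction they were −0.68 and 0.14 for NRARP, and −0.12 and 0.79 for NOTCH1.

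**Figure D4:**
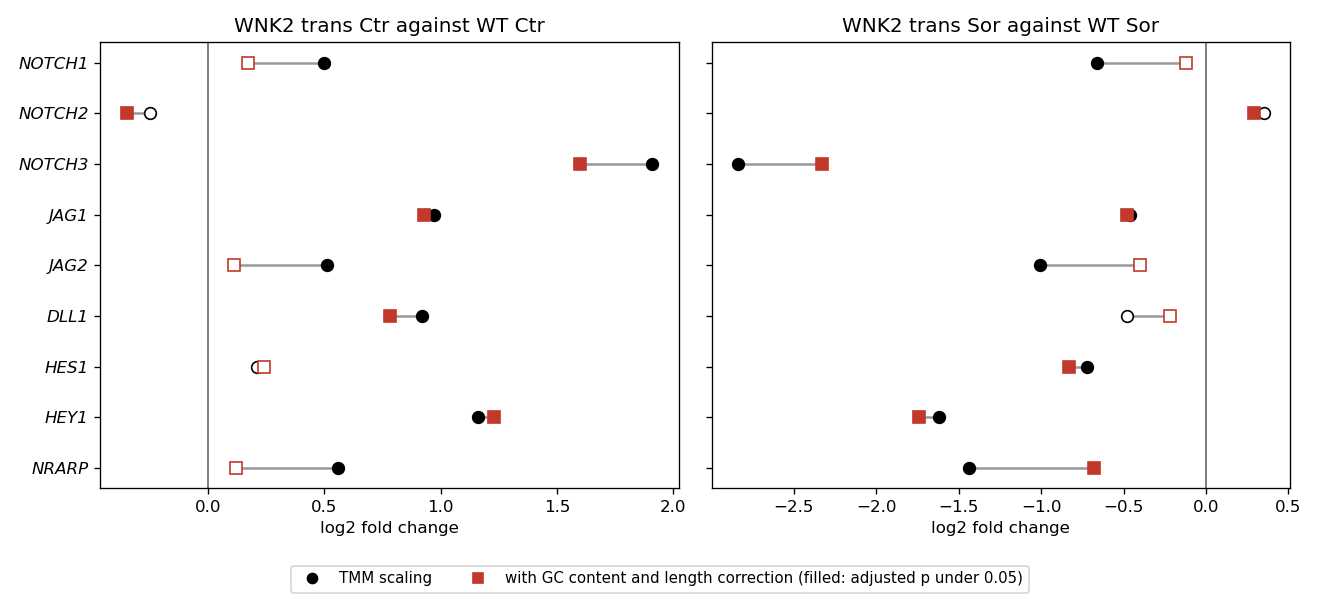
Log2 fold change (x axis) of the 9 tested genes (y axis) in WNK2 trans Ctr against WT Ctr (left) and WNK2 trans Sor against WT Sor (right), with TMM scaling (circles) and with the correction for GC content and transcript length (squares); filled points have an adjusted p under 0.05. NOTCH1, JAG2 and NRARP move towards 0, and HEY1, JAG1 and HES1, with lower GC content, hardly move. NOTCH3 also moves towards 0 on the left, from 1.91 to 1.60.

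The response to sorbitol was also compared between genotypes and between transfected and untransfected cells, as a difference of 2 log2 fold changes. In WNK2- cells the sorbitol change was more negative than in WT cells, with WT Ctr as isotonic group, for NOTCH3 (−2.64, SE 0.29, adjusted p = 9.10e-07), JAG1 (−0.89, SE 0.11, adjusted p = 3.60e-06) and HES1 (−1.05, SE 0.27, adjusted p = 0.0138). Of all genes 8.65% were called in this contrast (3.99% higher, 4.66% lower). With WNK2 trans Ctr in place of WT Ctr the values were −0.73 for NOTCH3 (adjusted p = 0.202), 0.08 for JAG1 (adjusted p = 0.850) and −0.84 for HES1 (adjusted p = 0.0881), and 0 Notch genes were called by edgeR, 4 of them having an unadjusted p under 0.05. Over all 16600 genes 562 were called in that exchanged contrast. In transfected against untransfected cells 8 of 9 genes were called, all with a more negative sorbitol change, beside 35.5% of all genes (18.1% higher, 17.4% lower), from −0.93 for HES1 to −4.75 for NOTCH3. With the 2 isotonic groups exchanged, 2 were called, NRARP (−0.88, adjusted p = 0.0186) and JAG1, the latter in the opposite direction (0.51, adjusted p = 0.00403 against −1.43 before). Over all 16600 genes 906 were called after this exchange. With the GC and length correction NOTCH1 (−0.29, adjusted p = 0.0542) and JAG2 (−0.51, adjusted p = 0.130) lost their call, and NRARP went from −1.99 to −0.80 (adjusted p = 0.00284). NOTCH2, at 0.60 (adjusted p = 0.0606), passed with the correction (0.65, adjusted p = 0.00187), DESeq2 (0.62, adjusted p = 0.0442) and upper-quartile factors (0.64, adjusted p = 0.0463), and without replicate 1 or 2 of WT Ctr or WNK2 trans Ctr or replicate 1 of WNK2 trans Sor (0.68 to 0.71, adjusted p = 0.0248 to 0.0484).

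Of 54 other genes of the pathway 46 were tested, and 26 were called in WNK2- Sor against WT Sor, 9 higher and 17 lower, with a median log2 fold change of −0.19, beside 46.3% of all genes called. Those that changed at least 2-fold were NEURL1 (4.04, adjusted p = 1.66e-12), TLE2 (−2.47, adjusted p = 5.93e-11), DLK2 (−2.10, adjusted p = 3.10e-10), NOTCH4 (−1.34, adjusted p = 0.0121), MFNG (1.21, adjusted p = 0.0236), HES4 (−1.19, adjusted p = 0.00658), DTX3 (−1.18, adjusted p = 8.64e-07) and MAML3 (1.13, adjusted p = 0.000306). NEURL1, a ubiquitin ligase that acts on Notch ligands, rose from 22.1 ± 7.13 normalized counts in WT Sor to 365 ± 52.7 in WNK2- Sor, and TLE2, a corepressor that works with HES proteins, fell from 1067 ± 40.3 to 193 ± 33.9. DLK2 is a non-canonical ligand, MFNG glycosylates the receptors, DTX3 belongs to the Deltex family and MAML3 is a Mastermind coactivator. Among the core components, RBPJ was higher (0.41, adjusted p = 0.00181) and ADAM17, a receptor-cleaving protease, lower (−0.72, adjusted p = 0.000194). Of the 5 tested genes of the nuclear complex, which include RBPJ, 2 were called higher and 1 lower. Of the 7 tested receptor-processing genes, which include ADAM17, 1 was called higher and 4 lower. In isotonic medium 24 of 46 were called in WNK2- Ctr against WT Ctr (42.1% of all genes), 11 higher and 13 lower, with at least 2-fold changes in NEURL1 (1.98), TLE2 (−1.56), DLK2 (−1.50) and MFNG (1.35). Against WNK2 trans Ctr 26 were called (47.7% of all genes), 10 higher and 16 lower. The counts in these 3 comparisons were near the share over all genes. Those past 2-fold were TLE2 (−2.01), DLK2 (−1.99), MFNG (1.95), NEURL1 (1.73), DLL3 (−1.38), MAML3 (1.36), NOTCH4 (−1.34), HES4 (−1.25) and LFNG (1.04).

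Under sorbitol, the counts of the same genes are again to be read against the share of all genes called. In WT Sor 8 of 46 were called against WT Ctr (24.1% of all genes) and 9 against WNK2 trans Ctr (15.1% of all genes), none by 2-fold. In WNK2- Sor against WNK2- Ctr 10 were called (14.9% of all genes), 6 higher and 4 lower, and NEURL1 alone reached 2-fold (2.09, adjusted p = 1.33e-07). In WNK2 trans Sor against WNK2 trans Ctr 25 were called (48% of all genes), 8 higher and 17 lower, and against WT Ctr 22 (39.2% of all genes), 7 higher and 15 lower. In the former comparison MAML3 (2.50) and NEURL1 (1.28) rose, and HES4 (−1.73), NEURL1B (−1.62), DLK2 (−1.47), TLE2 (−1.34), NOTCH4 (−1.31), TLE3 (−1.28), DLL3 (−1.22) and NUMBL (−1.13) fell by at least 2-fold. In WNK2 trans Ctr against WT Ctr 4 were called (12.5% of all genes), none by 2-fold, and in WNK2 trans Sor against WT Sor 21 (31.7% of all genes), of which NEURL1 and MAML3 (both 1.51), TLE2 (−1.43), NEURL1B (−1.18), NOTCH4 (−1.16) and HES4 (−1.06) reached 2-fold. The genotype interaction called 4 of the 46 (8.65% of all genes) and the transfection interaction 26 (35.5% of all genes). In the genotype interaction NEURL1 (2.07) and MAML2 (−1.03) passed 2-fold. In the transfection interaction the genes past 2-fold were HES2 (−3.01), MAML3 (2.21), NOTCH4 (−1.98), HES4 (−1.91), TLE2 (−1.88), NUMBL (−1.40), DLK2 (−1.39), TLE3 (−1.39), NEURL1 (1.26), NEURL1B (−1.24) and DLL3 (−1.07). Genes below the filter were DLK1, PSENEN, HES5 and HEY2, and PSEN2, ITCH, SNW1 and HES6 were listed at 0 in every library.

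Each member was set beside the 2 genes whose log2 CPM followed it most closely over the 24 libraries, among 9533 or 9534 candidates. NOTCH3 went with PDGFRB (Pearson r = 0.99) and ABCA2 (0.98), and HEY1 with C1S (0.99) and GJA1 (0.98). NOTCH1 went with CSPG4 (0.96) and IQSEC1 (0.95), NOTCH2 with KPNA6 (0.95) and LUZP1 (0.94), JAG1 with IL1RAP (0.96) and RBMS1 (0.94), and JAG2 with SLC29A4 and C1QL4 (both 0.96). DLL1 went with PLAT and IGFBP5 (both 0.91), HES1 with PDGFA (0.95) and RGL3 (0.94), and NRARP with SHISAL1 and DIRAS1 (both 0.96). These libraries share group, depth and base composition. With group means taken out, the correlation of NOTCH3 with PDGFRB, a receptor of mural and mesenchymal cells, was 0.96, and that of HEY1 with GJA1 was 0.01. This step leaves differences in base composition between replicates in place. Among the members themselves, NOTCH3 was closest over all libraries to JAG2 (0.93, and 0.41 within groups) and JAG1 (0.89 and 0.31), and NOTCH2 ran against HES1 (−0.77 and −0.66). Within groups NOTCH3 was closest to NOTCH1 (0.85, and 0.21 over all libraries) and NRARP (0.76 and 0.69), which are also GC-rich.

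Neighbouring genes did not share the largest differences. In WNK2- Sor against WT Sor, the median over the 20 tested genes nearest to NOTCH3 was a log2 fold change of 0.22, with 6 called higher and 2 lower and none as far from 0 in the direction of NOTCH3. Those around HEY1 had a median of 0.21 and those around HES1 of 0.52, with 11 called higher and 3 lower, opposite to HES1 itself. For DLL1, with 14 neighbours, the median was 0.03. Around NRARP in WNK2 trans Sor against WT Sor the median was −0.51, with 5 of 20 genes called lower, beside −1.44 for NRARP. In the same comparison the 18 neighbours of JAG2 (−1.01) had a median of −0.41, with 7 called lower and 1 higher. Neighbours of NOTCH2 moved as far as NOTCH2 itself in WNK2 trans Sor against WNK2 trans Ctr (median 0.62 beside 0.54), with 11 of 20 called higher and 1 lower. The 20 neighbours of NOTCH1 had a median of 0.31 beside 0.80 in WNK2- Ctr against WT Ctr, with 4 called higher and 1 lower. In WNK2- Sor against WT Sor their median was 0.13 beside 0.48. It was −0.33 beside −0.66 in WNK2 trans Sor against WT Sor, with 6 called lower and 0 higher.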

How the data were processed

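RNA-seq libraries were poly(A)-selected and made with a NEBNext Ultra kit. Per the submitters' processing notes, the authors used FastQC 0.11.9, HISAT2 2.2.1, HTSeq 2.0.2 and DESeq2 1.38.3 with GRCh38, whereas the methods of the study name other versions of HTSeq and DESeq2. The annotation and the strand setting are not given in the sources used here. The deposited values are raw counts per gene and library, with no normalization, so reads shared by near-identical or overlapping genes could be lost or split.

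Counts were analysed in R 4.3.3 with the quasi-likelihood test of edgeR 4.0.16, fitted to all 24 libraries as 6 group means after filterByExpr (minimum count 10, minimum total 15) and TMM scaling. P-values were adjusted over 16600 genes by the Benjamini-Hochberg method (threshold 0.05), and 11 contrasts were tested. Normalized counts are counts divided by TMM-scaled library size, and gene models and positions are from GENCODE 29. DESeq2 1.42.0 was an alternative, beside other scalings, filters, a replicate block, fits of the compared groups alone, thinned counts, exchanged isotonic groups and fits without each library. A correction for GC content and length (splines with 5 degrees of freedom, 96.3% of tested genes) a fit without WT Ctr and WNK2 trans Ctr, and WNK2 trans Sor against WT Ctr were chosen after seeing the data. The fitting code was tested on simulated data. All 10 members are named, other pathway genes where called and changed at least 2-fold (RBPJ and ADAM17 in addition, after their values were seen), and the 2 most alike genes of each tested member. The members and lists were chosen with earlier results of these data known.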

Additional observations from a re-analysis of the deposited data

Results flagged for a closer look

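The response of 3 genes to sorbitol differed between WNK2- and WT cells by the interaction test (edgeR, log2 scale), NOTCH3 by −2.64, JAG1 by −0.89 and HES1 by −1.05. Of all genes 8.65% were called in this test. Between transfected and untransfected cells 8 genes differed in the same way, NOTCH1 by −1.16, NOTCH3 by −4.75, JAG1 by −1.43, JAG2 by −1.52, DLL1 by −1.40, HES1 by −0.93, HEY1 by −2.78 and NRARP by −1.99. Here 35.5% of all genes were called. With the GC and length correction NOTCH1 (−0.29, adjusted p = 0.0542) and JAG2 (−0.51, adjusted p = 0.130) lost their call. Both tests use the isotonic libraries whose WNK2 counts went against their labels, and the part of that in the differences was not tested beyond the exchange of the isotonic groups. With these groups exchanged, 0 Notch genes were called between genotypes. Between transfected and untransfected cells 2 were then called, NRARP and, in the opposite direction, JAG1. HEYL in WNK2 trans Sor replicate 1 stood apart at 7.22 normalized counts while the other 3 libraries were at 0. It was the 1 such value among 60 groups of 4 examined, where chance flags about 1 group in 20 if values are spread normally. With the other 3 libraries at 0, any count above 0 would be flagged, so the flag says little about this library.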

How the results depend on the processing

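Of 936 gene values in fits that left out 1 library, 891 kept their side of the threshold, 31 lost the call, 14 gained it and 0 reversed. A change of sign was counted as reversed only where a fit called the gene, and 22 uncalled values changed sign. DESeq2 gained 6 of 99 and lost 0, and the GC and length correction lost 9 and gained 10, with 0 reversed and 9 uncalled values changed in sign. The number of Notch genes called in WT Sor against WT Ctr went from 2 to 4 with DESeq2, 5 with the correction, and 2 to 4 in the fits without 1 library. In WNK2 trans Ctr against WT Ctr it went from 7 to 3 in a fit of the groups alone, and 3 to 7 without 1 library. With the isotonic groups exchanged, the genotype interaction fell from 3 genes to 0 and the transfection interaction from 8 to 2, and JAG1 (0.08 and 0.51) and DLL1 (0.44) reversed. With WT Ctr as the isotonic group of WNK2 trans Sor, 6 genes were called in place of 9 and DLL1 reversed (0.24). The causes were not tested, except that fits of fewer groups had fewer libraries.

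Over all genes, calls in WNK2 trans Ctr against WT Ctr went from 2082 to 723 with the groups alone and 3185 with the correction. WNK2- Sor against WNK2- Ctr went from 2473 to 4847 and 4479 in the same fits. With the correction, WT Sor gained calls against WT Ctr (4008 to 6182) and WNK2 trans Ctr (2499 to 5220). The genotype interaction (1436) had 2408 with the correction, 562 with groups exchanged, 950 without WNK2- Ctr replicate 2 and 866 without WNK2- Sor replicate 3, and the transfection interaction went from 5897 to 906 with groups exchanged. The numbers of the replicates do not pair the libraries: 9 of 60 same-numbered pairs correlated above 0.1 (range −0.29 to 0.46). The replicate block moved the count of Notch genes from 2 to 3 in WT Sor against WT Ctr and from 7 to 6 in WNK2 trans Ctr against WT Ctr. Counts of DLL1, HEY1 in WNK2- cells and HEYL limit what could be detected there.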
